A study of Mus musculus with 2 samples.

Results

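The tissue described here is the neural tissue next to HP breast tumors in the mouse cerebellum, set against neural tissue of the same sections that lies far from them. It consisted of 472 near spots, 279 of 3406 in section 1 and 193 of 4017 in section 2, out of 7423 spots under tissue in all. The far tissue held 1289 and 1446 spots in sections 1 and 2, and a middle zone held 365 spots in each. A spot is a barcoded circle of the Visium array, whose unique molecular identifiers (UMIs) can come from several cells.

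Each section came from 1 mouse of the group labelled HP, without treatment. Replicate 1 (HP-F1 +cre in the labels) gave section 1 and replicate 2 (HP-B6 +cre) gave section 2. The cell line label of both names B6-HP organoids, so whether both mice received the same organoid line is not settled by the labels. HP organoids carried a human HER2 transgene with an activating mutation, driven by an actin promoter behind a Lox-STOP-Lox element, together with an activating PIK3CA mutation. They were grown from mammary tumors induced with Cre adenovirus, labeled with luciferase and injected stereotactically on a single side into the cerebellum. Tumor cells placed by needle do not arrive through the circulation, and tissue damaged by the needle was not marked in the files. No uninjected mouse was in the series, so far tissue is the reference here and is itself tissue of a tumor-bearing brain.

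Members were chosen from measured UMIs. Tumor spots had at least 20000 UMIs and at least 10000 UMIs scaled to a spot total of 1000000 (CPM) of *Col1a1* plus *Col3a1* in section 1, or 5000 CPM of *Epcam* plus *Krt7* plus *Krt8* in section 2, which gave 754 and 688 spots. Neural spots had at least 2000 UMIs, at least 2000 CPM of *Mbp* plus *Snap25* and under 500 CPM of *Arg1*, with under 2000 CPM of the 2 collagens in section 1 or under 300 CPM of the 3 epithelial genes in section 2. Near spots lay within 8 steps of the hexagonal array from a tumor spot, far spots over 16 steps away, and middle spots between. The median distance was 6 steps for near spots and 28 and 29 steps for far spots. Of the spots within 8 steps that were not tumor spots, 268 of 547 in section 1 and 686 of 879 in section 2 were not neural by the rule, so that near tissue here is the more neural part of the surroundings. The limits cut through a continuum. The spots closest to the limit on the tumor genes had 1967 CPM inside and 2046 CPM outside in section 1, and 299.8 and 300.5 CPM in section 2. At the outermost near step lay 54 and 36 neural spots, and 44 and 37 lay at the next step.

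**Figure D1:**
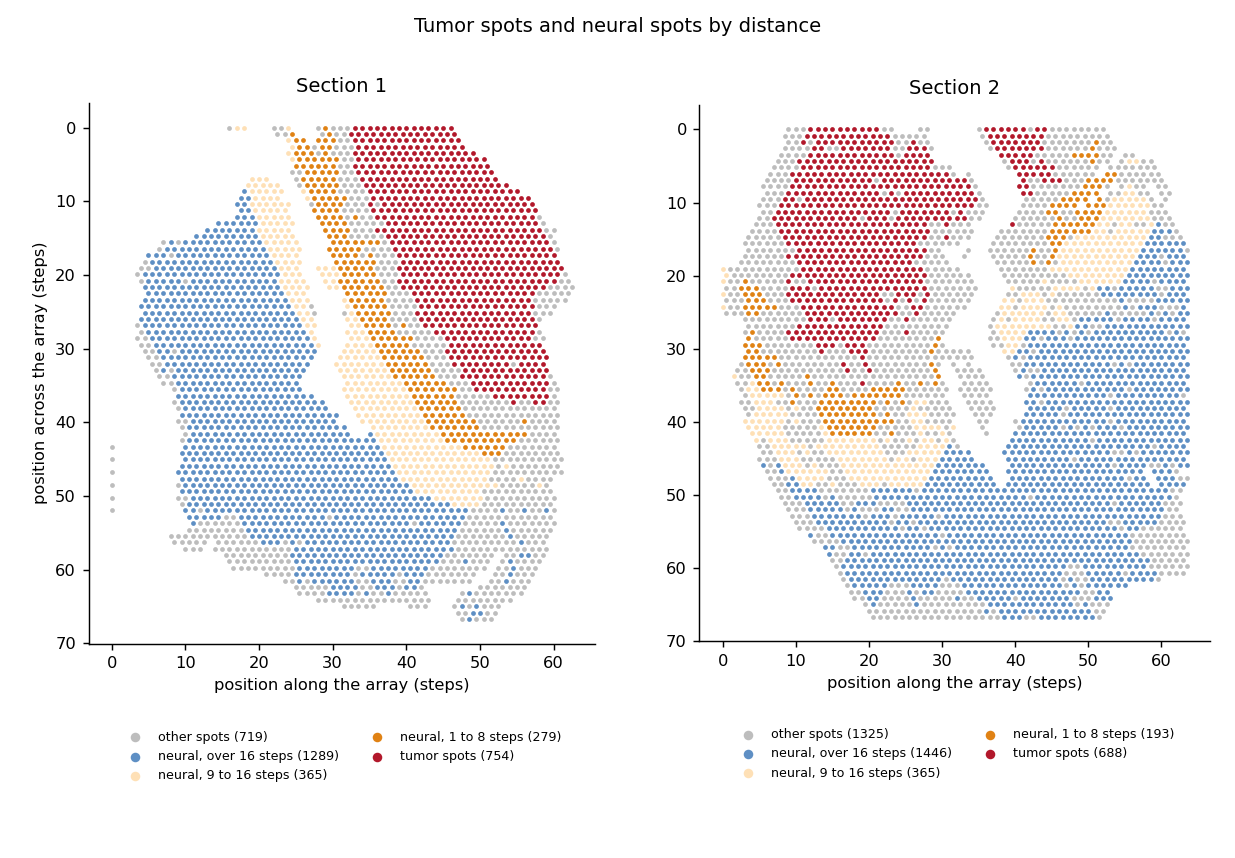
Array position of every spot under tissue, in steps along and across the array, colored as tumor, near, middle, far or other. In section 1 the 279 near spots formed a band along the tumor, with other spots between, and in section 2 the 193 near spots lay in several patches.

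The cerebellar cortex has a molecular layer of interneurons and Purkinje cell dendrites, Purkinje cell bodies ensheathed by Bergmann glia, and a granule layer, with white matter and nuclei beneath. Astrocytes that meet injury or a tumor become reactive and raise intermediate filaments, protease inhibitors and secreted acute phase proteins. Microglia, the resident macrophages of the brain, raise lysosomal, lipid handling and complement genes. Interferons raise antiviral genes and the machinery that presents peptides on MHC molecules.

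The labels call the tissue cerebellum. Short marker lists placed each neural spot in the granule layer (*Gabra6*, *Cbln3*, *Neurod1*, *Fat2*), the molecular and Purkinje layer (*Pcp2*, *Calb1*, *Car8*, *Ppp1r17*, *Slc1a6*), white matter (among others *Mobp*, *Mal*, *Cldn11*, *Mog*, *Mag*) or brainstem and nuclei (*Slc17a6*, *Slc6a5*, *Nefh*, *Resp18*, *Zcchc12*, *Hoxb5*), whichever list scored highest. Near spots were 40.5 and 41.5% granule layer and 25.1 and 24.4% molecular and Purkinje layer in sections 1 and 2. Far spots were 12.8 and 15.4% and 9.697 and 12.2%. Brainstem and nuclei made up 1.79 and 15.5% of near spots but 53.6 and 45.6% of far spots. Distance and anatomy thus moved together, and the far tissue was to a large part not cerebellar cortex. Comparisons are given over all neural spots and within single classes, and, for counts and some lists, with the middle and far spots weighted to the class shares of the near spots. Within-class values of the genes that defined the classes are descriptions and carry no test. A spot took the class whose list scored highest, so near and far spots of 1 class can still differ in their mix of tissue.

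**Figure D2:**
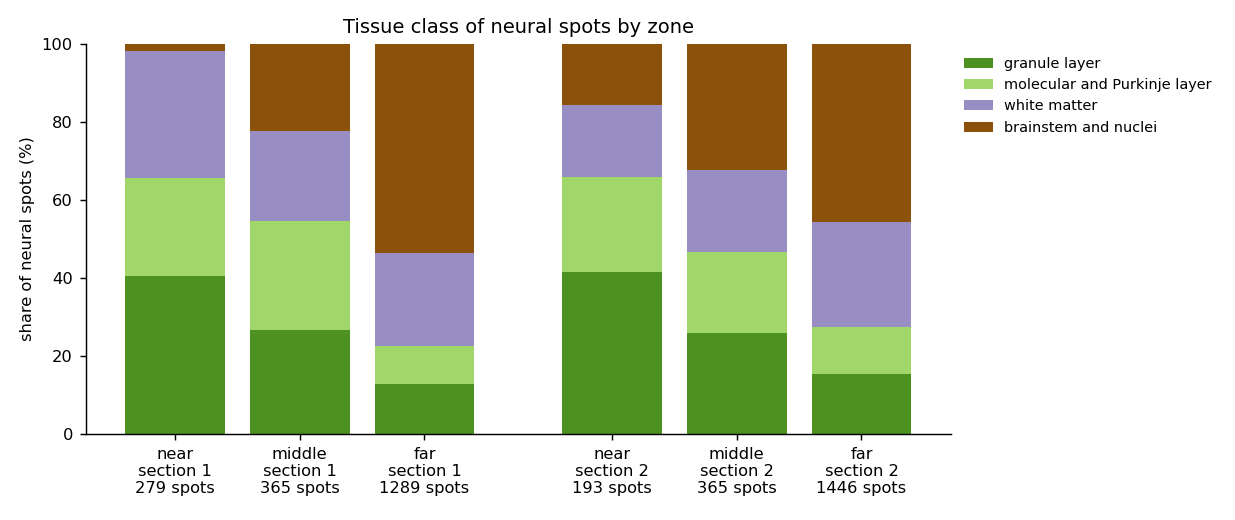
Share of neural spots (%) in each of 4 tissue classes, by zone and section. Brainstem and nuclei made up 1.79% of near and 53.6% of far spots in section 1, and 15.5% and 45.6% in section 2.

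Summed over spots, the near tissue held 3763396 and 2856003 UMIs, the middle zone 3645785 and 4855157, and the far tissue 10706990 and 15683519. The median near spot held 11959 and 14180 UMIs against 7417 and 9452.5 for the median far spot, a ratio of 1.61 and 1.5, and the median tumor spot held 54613.5 and 42415.5. The levels below are CPM of these sums. Near, middle and far levels of tested genes were taken over the UMIs of tested genes and scaled by TMM normalization factors of 0.98 to 1.05. Levels of tumor spots, distance bands, list sums and genes of the rule are plain shares of all UMIs. Near and tumor levels of a gene thus differ slightly in scale. In such sums fewer cells of a type cannot be told apart from less RNA per cell. The sections shared 3096 spot barcodes, since a barcode names a position of the array. The genes of the rule are given as values only. *Mbp* was at 5195 and 2719.9 CPM near and 8769.8 and 5689 CPM far, and *Snap25* at 1071 and 1444 CPM near and 2534 and 2461 CPM far. *Arg1* was at 73.1 and 55.7 CPM near and 5.79 and 10.6 CPM far. *Col1a1* was at 466 and 31.9 CPM near and 21755 and 156 CPM in tumor spots, and *Krt7* at 1.59 and 35.4 CPM near and 2.67 and 4172 CPM in tumor spots. Tumor spots were chosen by different genes in the sections, so the high value in each section follows the rule. The rule put no limit on the other section's genes in tumor spots, but choosing spots by collagens or by epithelial genes can itself shape the low values. In section 1 tumor spots *Epcam* was at 6.29 and *Krt8* at 22.0 CPM, against 1907 and 1664 CPM in section 2. As chosen, tumor spots of the 2 sections thus differed in these genes. Whether the tumors themselves differed was not tested.

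Near tissue differed broadly from far tissue. The sums of each zone and section were compared in edgeR with section as a blocking term, and a gene was called when its Benjamini-Hochberg adjusted p over all genes was under 0.05. Of 16570 genes tested, 2243 were higher near (13.5%) and 2391 were lower near (14.4%), with changes above 2-fold in 1372 and 749 of them. Only 2 sections stand behind these values. With section as the block, the p-values rest on how zone differences, the middle zone included, varied between the sections. This left 2 residual degrees of freedom. Within the granule layer 1228 of 14197 genes were higher near (8.65%) and 442 lower (3.11%). Within the molecular and Purkinje layer 832 of 11856 were higher (7.02%) and 377 lower (3.18%), and within white matter 1977 of 11506 were higher (17.2%) and 1598 lower (13.9%). With class shares equalized, 9.79% of 17830 genes were higher and 5.55% lower. In granule and molecular layer spots together these shares were 8.14% and 3.81%. In DESeq2 they were 9.44% and 9.61%, and without the block 5.31% and 3.96%. Of the genes called higher near, 1049 of 2122 tested in the granule layer (49.4%) were also called higher there, whereas of those called lower 345 of 2337 (14.8%) were called lower there. In all 3 classes at once, 675 of 11163 genes were called higher (6.05%) and 143 lower (1.28%). Counts within classes include genes that defined the classes, such as *Cldn11* and *Mobp*, which were called in all 3. Brainstem and nuclei were not compared, because section 1 held 5 near spots of that class. The shares over all genes given here are the background for the list counts below.

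Folds were ranked among called genes with the same direction in both sections and a minimum CPM in the higher zone of both. The largest fitted rise among these belonged to *Lcn2*, which encodes lipocalin 2, a secreted protein of acute inflammation that binds iron-loaded siderophores. It was at 1801 and 2469 CPM near, 37.04 and 887 CPM in the middle zone and 5.11 and 56.2 CPM far in sections 1 and 2. Near values exceeded far values in both sections, and the middle zone was much higher in section 2 than in section 1. Differences here and in the parentheses below are near minus far on the log2 scale. The value after ± is an approximate standard error, the size of the difference over the square root of its edgeR F statistic. For *Lcn2* the difference was 7.26 ± 1.08, adjusted p = 0.00511. Across near spots its quartiles ran from 508 to 2492 CPM in section 1 and from 976 to 4152 CPM in section 2, while both quartiles of far spots were 0, which at the depth of single spots does not show absence. Tumor spots had 113 and 1056 CPM, less than near tissue in both sections. Within the classes the differences were 6.64, 6.56 and 7.98 in the granule layer, the molecular and Purkinje layer and white matter, and none passed the threshold (adjusted p = 0.169, 0.22 and 0.0615).

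*Chil1*, a chitinase-like secreted protein of reactive astrocytes and macrophages, was at 1843 and 1549 CPM near, 129 and 1242 CPM in the middle zone and 48.6 and 156 CPM far, and at 23.03 and 7.62 CPM in tumor spots. It was highest near and lowest in the tumor in both sections (4.54 ± 0.80, adjusted p = 0.00858). *Ccn5*, a matricellular protein, was at 167 and 255 CPM near, 9.603 and 164 CPM in the middle zone and 1.99 and 14.1 CPM far (5.26 ± 0.78, adjusted p = 0.00499). *Timp1*, an inhibitor of matrix metalloproteinases, was at 259.9 and 87.2 CPM near and 4.16 and 8.08 CPM far (4.85 ± 0.82, adjusted p = 0.00743). Within the granule layer the differences of *Chil1*, *Ccn5* and *Timp1* were 4.58, 4.06 and 3.496 and were not called. *Plac8*, at 63.2 and 27.8 CPM near and 1.23 and 2.09 CPM far, rose by 4.68 over all spots and was called in each of the 3 classes (4.40, 3.497 and 6.81). *AB124611* rose by 4.55, and by 4.96 in the granule layer.

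**Figure D3:**
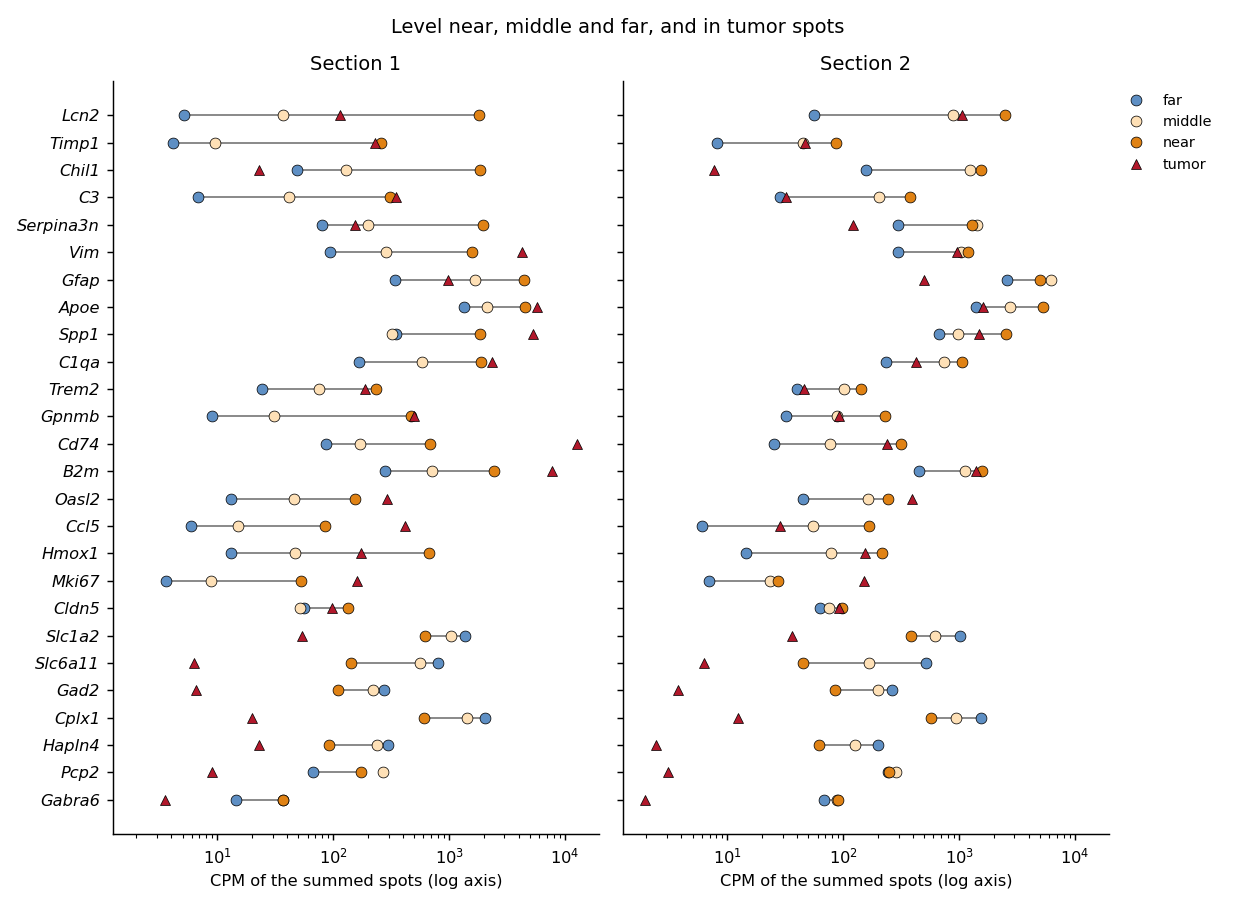
CPM of the summed spots (log axis) for 26 genes in far, middle and near neural tissue and in tumor spots, 1 value for each zone and section. *Lcn2* spans 5.11 and 56.2 CPM far to 1801 and 2469 CPM near, and *Slc6a11* runs the other way, from 794 and 519.7 CPM far to 142 and 44.96 CPM near.

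Genes of reactive astrocytes were higher near. All 15 tested members were called higher over all spots, with a median log2 difference of 2.96 (3.69 in section 1 and 1.76 in section 2), beside 13.5% of all genes called higher and a median of 0.05 over all genes. In the granule layer, the molecular and Purkinje layer and white matter 5 of 14, 11 of 14 and 7 of 14 were called higher (8.65%, 7.02% and 17.2% of all genes) and none lower, with medians of 2.33, 2.48 and 3.34, and with class shares equalized 5 of 15 were called at a median of 2.52. *Gfap*, the intermediate filament of astrocytes, was at 4412 and 5013 CPM near, 1686 and 6234 CPM in the middle zone and 342 and 2568 CPM far. Near exceeded far in both sections, and in section 2 the middle zone was higher still (2.38 ± 0.61, adjusted p = 0.0305). *Gfap* was also called in the granule layer (2.06) and the molecular and Purkinje layer (2.49) but not in white matter (1.83, adjusted p = 0.313). Its near quartiles of 2646 to 5820.1 CPM lay above the far quartiles of 83.6 to 598 CPM in section 1, whereas in section 2 those of near spots, 2915 to 5666 CPM, and far spots, 404 to 3201 CPM, overlapped.

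*Serpina3n*, a serine protease inhibitor of reactive astrocytes, was at 1944 and 1289 CPM near, 199.7 and 1414 CPM in the middle zone and 79.2 and 297 CPM far (3.67 ± 0.79, adjusted p = 0.0166). The middle zone exceeded the near zone in section 2 and lay far below it in section 1. Tumor spots had 153 and 121 CPM, and the within-class differences of 3.73, 3.35 and 4.44 were not called. *Vim*, a filament that reactive astrocytes share with stromal cells, was at 1585 and 1189 CPM near, 94.2 and 297 CPM far and 4219 and 958 CPM in tumor spots (3.18 ± 0.56, adjusted p = 0.00851). It was not called in the granule layer (2.46, adjusted p = 0.219), in white matter (3.57, adjusted p = 0.124) or with class shares equalized (2.83, adjusted p = 0.191). *Steap4*, a metalloreductase, was at 31.05 and 41.3 CPM near and 2.08 and 3.78 CPM far (3.68 ± 0.33, adjusted p = 0.00157) and was called in each class (2.33, 2.09 and 5.34). *Osmr*, the receptor subunit for oncostatin M, and *Emp1*, a membrane protein, were likewise called in each class. Of the 15 members, 5 were higher in tumor than in near spots in both sections and 6 were lower.

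General astrocyte genes split. Of 10 tested members 3 were called higher near and 4 lower (median -0.18), beside 13.5% of all genes called higher and 14.4% called lower. The glutamate transporter *Slc1a2* was at 617 and 386 CPM near, 1048 and 621 CPM in the middle zone and 1363 and 1008 CPM far. It climbed with distance in both sections (-1.27 ± 0.14, adjusted p = 0.00223) and was also lower in the granule layer (-0.75) and white matter (-1.05). *Aldoc*, a glycolytic enzyme of astrocytes and of some Purkinje cells, was at 1509 and 1002 CPM near and 2482 and 2145 CPM far (-0.92 ± 0.17, adjusted p = 0.00982). *Slc1a3*, the glutamate transporter most abundant in Bergmann glia, went the other way, at 495 and 429.8 CPM near and 200.4 and 337 CPM far (0.85 ± 0.23, adjusted p = 0.0379), with 0.19, 0.44 and 0.45 within classes, where it was not called. *Slc6a11*, an astrocytic GABA transporter, had one of the largest falls, at 142 and 44.96 CPM near, 557 and 166 CPM in the middle zone and 794 and 519.7 CPM far (-3.02 ± 0.30, adjusted p = 0.00188). It was called lower in each class (-1.70, -1.68 and -2.53). Among the called genes ranked above the minimum CPM, the other largest falls were those of *Lamp5*, *Sncg*, *Ndst4*, *Mcf2* and *Dlk1* (-4.003, -3.07, -3.04, -3.02 and -3.01), beside *Sst* and *Slc6a5*. In the granule layer *Lamp5* was at -2.84 with a call, but the sections went in opposite directions there (-3.87 in section 1 and 0.43 in section 2). *Sncg* was at -1.12, *Ndst4* at -1.02, *Mcf2* at -1.67 and *Dlk1* at -0.96 in that layer, all without a call.

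*Aqp4*, the water channel of astrocyte endfeet, was at 459 and 316 CPM near, 345 and 371 CPM in the middle zone and 176 and 301 CPM far. It missed the threshold over all spots (0.72 ± 0.28, adjusted p = 0.109) and was called higher in each class (0.53, 1.08 and 0.89). *Kcnj10*, the channel through which astrocytes take up potassium, was at 396 and 233 CPM near and 813 and 499 CPM far (-1.07 ± 0.16, adjusted p = 0.0045) and at -0.40 in the granule layer without a call. Of 10 genes of water, potassium and barrier handling 2 were higher and 2 lower, beside 13.5% and 14.4% of all genes. Among 8 Bergmann glia genes 3 were higher and 2 lower, and *A2m*, a broad protease inhibitor, was at 225 and 399 CPM near and 20.3 and 117 CPM far (2.61 ± 0.39, adjusted p = 0.00503), called in each class.

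**Figure D4:**
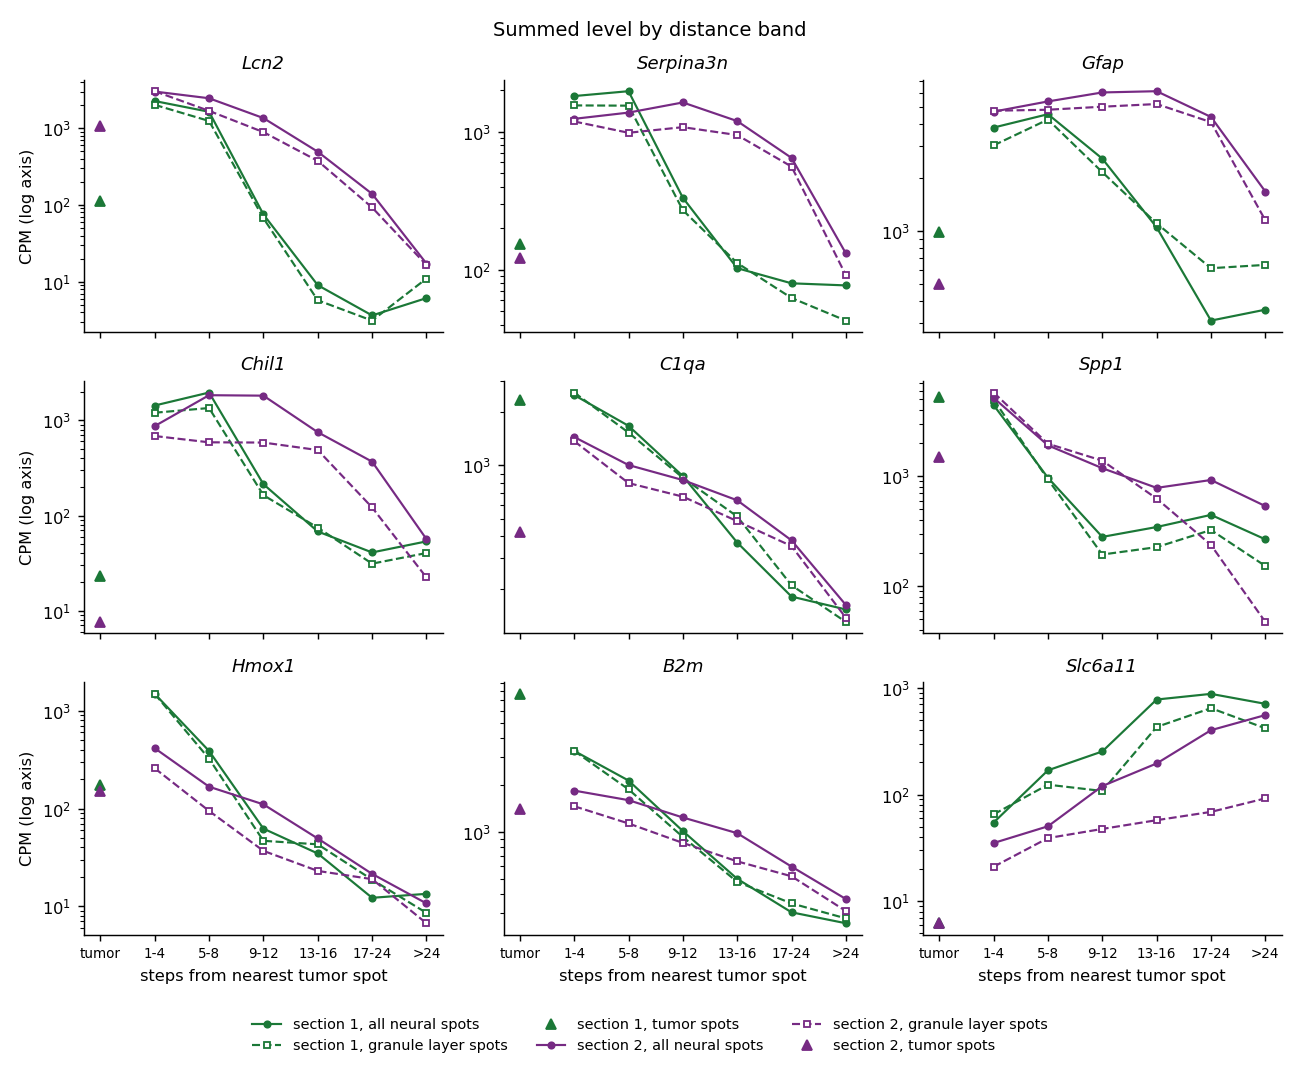
CPM (log axis) by distance from the nearest tumor spot in steps for 9 genes, in all neural spots (solid) and granule layer spots (dashed), with tumor spots as triangles, 1 value for each band and section. From 5-8 to 9-12 steps, *Serpina3n* in granule layer spots went from 1546 to 270.2 CPM in section 1 and from 983 to 1079.7 CPM in section 2.

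Profiles by distance differed in shape between sections and between genes, and are given as descriptions. In section 1 *Lcn2* was at 2254, 1634, 75.3, 9.03, 3.64 and 6.12 CPM in the bands of 1 to 4, 5 to 8, 9 to 12, 13 to 16, 17 to 24 and over 24 steps. In section 2 it was at 2996, 2451, 1353, 494, 139 and 17.3 CPM. The drop in section 1 lay between the second and the third band, and section 2 had a gradual slope. *Gfap* in section 2 was at 4715 CPM in the first band, 6151 CPM at 13 to 16 steps and 1668 CPM beyond 24 steps, and in section 1 it was at 3832, 1046 and 358 CPM. Phagocyte genes shown here were highest in the first band. *Gpnmb* was at 1119 and 440.0 CPM there and 248 and 179 CPM at 5 to 8 steps, and *Spp1* at 4435 and 5159.7 CPM and then 969 and 1909 CPM. *Chil1* was higher in the second band than in the first in both sections, with 1961 and 1838 CPM against 1432 and 871 CPM. The first band held 58 and 42 spots.

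Most microglial genes were higher near. Of 10 tested members 7 were called higher over all spots and none lower (median 1.70), as were 7 of 9, 5 of 9 and 9 of 9 in the 3 classes. Of all genes, 13.5% were called higher over all spots and 8.65%, 7.02% and 17.2% in the classes. *Tmem119*, a marker of homeostatic microglia, was at 56.2 and 48.99 CPM near, 24.4 and 43.7 CPM in the middle zone and 12.97 and 18.8 CPM far (1.77 ± 0.24, adjusted p = 0.00397). *P2ry12*, their purinergic receptor, was at 98.2 and 61.1 CPM near, 62.8 and 81.6 CPM in the middle zone and 30.7 and 47.9 CPM far (1.05 ± 0.30, adjusted p = 0.0416). In section 2 the middle zone exceeded the near zone for *P2ry12*, and in the granule layer it was not called (1.18, adjusted p = 0.122). *Fcrls*, a microglial Fc receptor-like protein, and *Cx3cr1*, the fractalkine receptor, rose by 2.78 and 2.32 and were called in each class. Tumor spots lay below near spots in both sections for 6 of the 7 called members.

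Of 14 tested genes of disease-associated microglia, a phagocytic state described around amyloid plaques, 13 were called higher (median 2.65), beside 13.5% of all genes. In the classes 9 of 14, 11 of 13 and 12 of 14 were, beside 8.65%, 7.02% and 17.2%. *Trem2*, the lipid receptor on which that state depends, was at 235 and 143 CPM near, 74.9 and 101 CPM in the middle zone and 24.3 and 39.7 CPM far (2.59 ± 0.33, adjusted p = 0.00335). *Apoe*, a lipid carrier of astrocytes and activated microglia, was at 4479 and 5301 CPM near and 1351 and 1405 CPM far (1.82 ± 0.16, adjusted p = 0.00157). Both fell with distance in both sections and were called in each class. *Gpnmb*, a glycoprotein of lysosome-rich phagocytes, was at 467 and 229 CPM near and 8.896 and 32.1 CPM far (4.33 ± 0.70, adjusted p = 0.00642), but it was not called in the granule layer (3.72, adjusted p = 0.28), in white matter (4.80, adjusted p = 0.0992) or with class shares equalized (4.21, adjusted p = 0.218). *Spp1*, the secreted protein osteopontin, was at 1841 and 2543 CPM near and 349 and 670.2 CPM far (2.19 ± 0.27, adjusted p = 0.00322), and its larger difference in the granule layer was not called (3.97, adjusted p = 0.252). *Ctsd*, a lysosomal aspartyl protease, had quartiles across near spots of 1379 to 3309.6 CPM in section 1 and 858 to 2077 CPM in section 2, which did not overlap the far quartiles of 119.8 to 413 and 167 to 499.7 CPM.

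Macrophage and monocyte genes were called higher near for 9 of 10 tested members (median 2.46), beside 13.5% of all genes. In the classes 7 of 9, 4 of 9 and 8 of 8 were, beside 8.65%, 7.02% and 17.2%. *Cd68*, a lysosomal glycoprotein of phagocytes, was at 464 and 212 CPM near, 84.5 and 120.3 CPM in the middle zone and 22.1 and 39.8 CPM far (3.45 ± 0.47, adjusted p = 0.00394). *Ms4a6c*, a membrane protein of monocytes, was at 97.97 and 72.5 CPM near and 4.45 and 5.93 CPM far (4.05 ± 0.31, adjusted p = 0.00149). *Ccr2*, the chemokine receptor of monocytes that homeostatic microglia lack, was at 38.3 and 22.1 CPM near, 4.16 and 2.87 CPM far and 117 and 7.35 CPM in tumor spots (3.10 ± 0.35, adjusted p = 0.00228). For all of these the tumor exceeded the near tissue in section 1 and lay below it in section 2. *Mmp12*, the macrophage elastase, was at 79.5 and 18.1 CPM near and 3.596 and 4.11 CPM far (3.36 ± 0.51, adjusted p = 0.00526).

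Lymphocyte and neutrophil transcripts were scarce. The 8 T cell genes summed to 78.7 and 39.6 CPM near, 28.5 and 28.3 CPM far and 304 and 12.4 CPM in tumor spots. Of them 4 of 8 were called higher over all spots and 0 of 6 in the granule layer, beside 13.5% and 8.65% of all genes. There the sum was 68.97 and 36.5 CPM near and 62.4 and 44.8 CPM far, and 0 of 6 had an unadjusted p under 0.05 in edgeR. In white matter the members *Cd3e* and *Lck* were called higher (3.18 and 2.80), and *Cd3e* was at 0.44 in the granule layer without a call. The 7 neutrophil genes summed to 34.8 and 46.2 CPM near and 11.8 and 9.5 CPM far, with 4 of 5 called higher. In granule layer spots their sum was 40.2 and 45.9 CPM near and 37.8 and 19.1 CPM far. Of these genes *S100a9*, a calcium-binding alarmin, was at 11.5 and 15.4 CPM near and 2.08 and 1.96 CPM far (2.76 ± 0.59, adjusted p = 0.0158). *S100a9* was called in the granule layer (2.17) and white matter (2.96) but not in the molecular and Purkinje layer (1.77, adjusted p = 0.349). *S100a8* was not called in the granule layer (1.44, adjusted p = 0.0663). Of B and plasma cell genes 4 of 7 were called higher over all spots and 1 of 4 in the granule layer. The filter on low counts worked by zone, so scarce genes could enter the test through the zone where they were high. The neutrophil gene *Camp*, at 2.68 and 4.36 CPM near and 0.09 and 0.59 CPM far, is such a case. Counts of called members among scarce genes can therefore lean toward higher near.

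Complement genes were called higher near for 11 of 13 tested members (median 2.71) and for 8 of 12, 9 of 9 and 10 of 10 in the classes (13.5% of all genes, and 8.65%, 7.02% and 17.2% in the classes). *C1qa*, a subunit of the initiating complex made by microglia, was at 1897 and 1061 CPM near, 579 and 733 CPM in the middle zone and 167 and 233 CPM far (2.89 ± 0.33, adjusted p = 0.00271). Levels fell with distance in both sections, and the gene was called in each class (2.94, 2.46 and 3.36). *C3*, the component on which the activation routes converge, was at 309.7 and 374 CPM near, 41.4 and 203 CPM in the middle zone and 6.81 and 28.3 CPM far (4.63 ± 0.51, adjusted p = 0.0024). Receptors rose too, *C3ar1* being at 196 and 139.6 CPM near and 8.04 and 17.2 CPM far (3.83 ± 0.41, adjusted p = 0.00235) and *C5ar1* rising by 3.36. *C4b* was at 948 and 755 CPM near and 70.3 and 344 CPM far (2.42 ± 0.57, adjusted p = 0.0229), and in the granule layer it was not called (2.11, adjusted p = 0.0621). *C2*, a protease of the classical route, and *Cd55*, an inhibitor, were not called over all spots (0.66 and -0.53).

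All 13 tested lysosome genes were called higher near over all spots and in each of the 3 classes. Medians were 1.997 over all spots and 2.12, 1.76 and 2.61 within classes. The shares of all genes called higher were 13.5% over all spots and 8.65%, 7.02% and 17.2% within classes. *Ctss*, a cysteine protease that processes antigen, was at 1211 and 832 CPM near, 328 and 551 CPM in the middle zone and 123 and 166 CPM far (2.85 ± 0.31, adjusted p = 0.00235). *Grn*, a regulator of lysosomal function, was at 602 and 370.1 CPM near and 57.4 and 95.1 CPM far (2.71 ± 0.34, adjusted p = 0.00327). The smallest rise among them was that of *Lamp1*, a structural membrane protein of lysosomes (0.58).

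Interferon-induced genes were called higher near for all 15 tested members (median 2.69), beside 13.5% of all genes. In the classes 14 of 15, 14 of 15 and 15 of 15 were, beside 8.65%, 7.02% and 17.2%, with medians of 2.27, 2.07 and 3.41. *Oasl2*, an antiviral oligoadenylate synthetase-like protein, was at 155 and 241 CPM near, 45.5 and 165 CPM in the middle zone and 13.2 and 44.8 CPM far (2.99 ± 0.30, adjusted p = 0.00205). *Irf7*, a transcription factor that amplifies type I interferon production, was at 103 and 148 CPM near and 8.99 and 22.9 CPM far (3.12 ± 0.31, adjusted p = 0.00188). Both fell from near through middle to far in both sections and were called in each class. *Bst2*, which tethers budding viruses, was at 256 and 248 CPM near and 14.4 and 48.6 CPM far (3.23 ± 0.40, adjusted p = 0.00321) and was the member not called in the granule layer (2.76, adjusted p = 0.145). Tumor spots exceeded near spots in both sections for 6 of the 15 members and lay below them for 1.

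Since these genes moved together, promoter sequence is shown for the 4 with the largest log2 differences among those whose last 150 bases before the start hold the core of the interferon-stimulated response element, searched on both strands as GAAA, any 2 bases and GAAA. The sequences are those of RefSeq (GRCm38.p6), 5′ to 3′ on the strand of the gene and ending at position -1, the base before the start, with matches in capitals.
Bst2: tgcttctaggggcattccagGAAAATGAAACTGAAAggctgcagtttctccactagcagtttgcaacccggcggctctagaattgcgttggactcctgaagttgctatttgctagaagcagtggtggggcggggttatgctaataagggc
Gbp2: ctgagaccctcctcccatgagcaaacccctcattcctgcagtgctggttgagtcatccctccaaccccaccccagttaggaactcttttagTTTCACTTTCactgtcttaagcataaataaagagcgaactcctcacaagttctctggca
Rsad2: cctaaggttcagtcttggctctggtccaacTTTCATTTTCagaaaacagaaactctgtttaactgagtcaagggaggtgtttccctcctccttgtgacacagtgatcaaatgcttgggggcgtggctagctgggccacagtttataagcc
Ifit1: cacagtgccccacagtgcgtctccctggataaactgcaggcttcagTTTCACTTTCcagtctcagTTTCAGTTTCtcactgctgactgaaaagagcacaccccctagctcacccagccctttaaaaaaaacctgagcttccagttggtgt
The windows lie at chr8:71537473-71537622 and chr12:26456453-26456602 on the minus strand and at chr3:142620513-142620662 and chr19:34640739-34640888 on the plus strand. Matches begin at -130 and, overlapping, -124 in *Bst2*, at -59 in *Gbp2*, at -120 in *Rsad2*, and at -104 and -85 in *Ifit1*. Within 250 bases before the start, 8 of 13 interferon-induced genes found in the table held a match, and 936 of all 27025 genes (3.46%) did. The same search matched 2 of 9 MHC class I genes, 2 of 12 lysosome genes and 1 of 12 synapse genes. It matched 0 of 4 MHC class II genes, 0 of 13 reactive astrocyte genes and 0 of 8 complement genes. A match describes letters and does not show binding. *Gbp2*, a guanylate-binding GTPase, *Rsad2*, an antiviral radical SAM enzyme, and *Ifit1*, which binds viral RNA, rose by 2.83, 2.72 and 2.69 near the tumor.

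Both branches of antigen presentation were higher near. All 11 tested MHC class I genes were called over all spots (median 2.36), and 11 of 11, 9 of 11 and 11 of 11 in the classes. Beside these, 13.5% of all genes were called higher over all spots and 8.65%, 7.02% and 17.2% in the classes. *B2m*, the light chain of class I molecules, was at 2442 and 1582 CPM near, 715 and 1113 CPM in the middle zone and 282 and 449.7 CPM far (2.51 ± 0.34, adjusted p = 0.00392). Its near quartiles of 1575 to 3198 and 1008 to 2759.7 CPM did not overlap the far quartiles of 123 to 404 and 193 to 584 CPM. *Psmb8* and *Tap1*, which cut and transport peptides for class I, rose by 2.88 and 2.76. All 7 MHC class II genes were called over all spots (median 2.75), and 6 of 7, 5 of 7 and 7 of 7 in the classes. *Cd74*, the invariant chain of class II, was at 685 and 312 CPM near, 170.4 and 77.2 CPM in the middle zone and 87.1 and 25.2 CPM far (3.28 ± 0.19, adjusted p = 0.00126). Tumor spots had 12648 and 236 CPM, far above the near tissue in section 1 and below it in section 2.

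**Figure D5:**
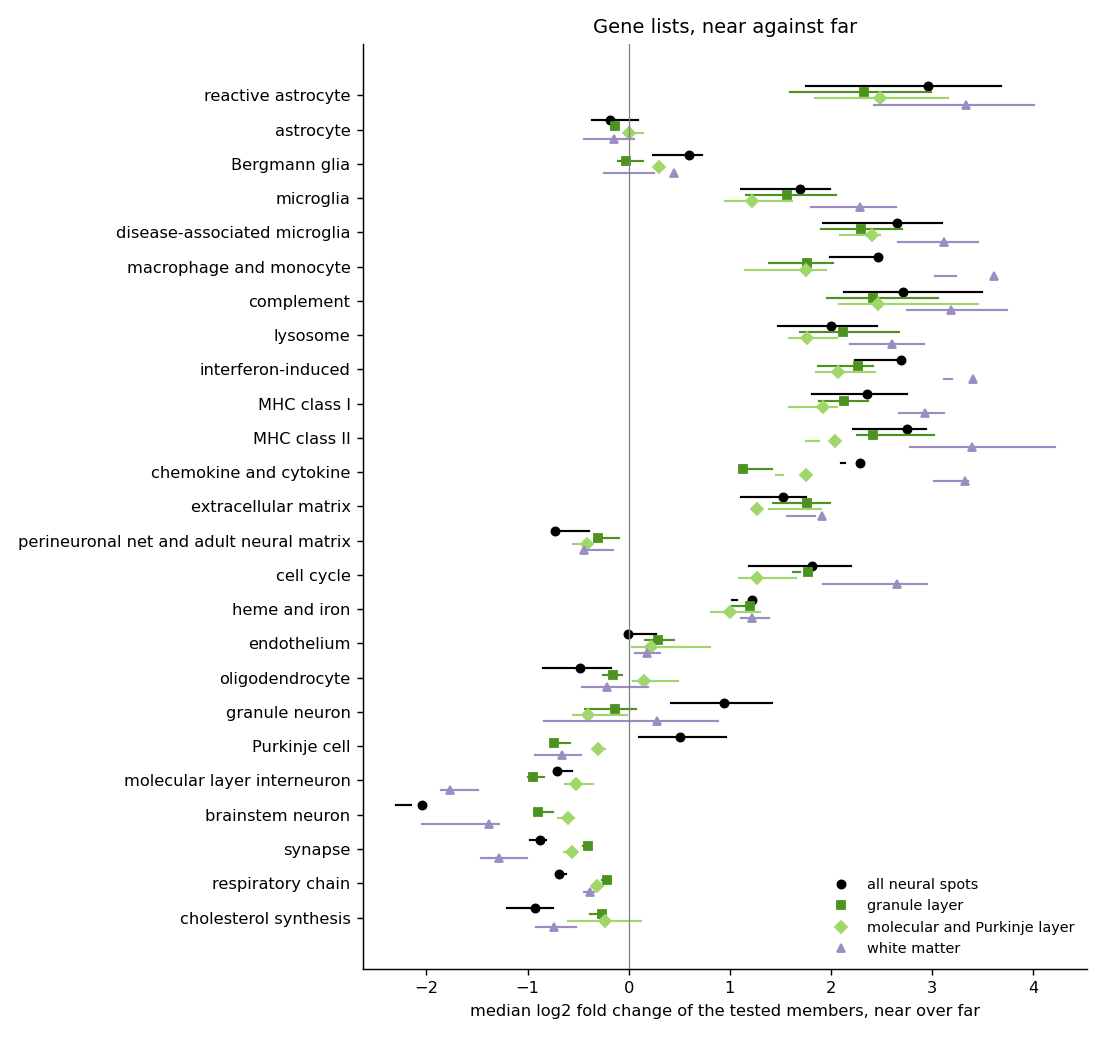
Median log2 difference, near against far, of the tested members of 25 gene lists in all neural spots and 3 tissue classes (points), with lines joining the medians of the 2 sections, which come from each section's own CPM and need not enclose the point. The reactive astrocyte list lies at 2.96 over all spots and 2.33, 2.48 and 3.34 in the classes, and the synapse list at -0.88 and -0.41, -0.56 and -1.28.

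Chemokine and cytokine genes were called higher near for 10 of 15 tested members (median 2.29) and for 5 of 13, 5 of 10 and 10 of 12 in the classes (13.5% of all genes, and 8.65%, 7.02% and 17.2% in the classes). *Ccl5*, which attracts T cells and monocytes, was at 84.3 and 165 CPM near, 15.1 and 54.5 CPM in the middle zone and 5.96 and 5.996 CPM far (4.34 ± 0.37, adjusted p = 0.00157), and was called in each class (4.14, 4.05 and 5.26). *Ccl12*, a monocyte attractant, was at 115 and 179 CPM near and 3.12 and 31.2 CPM far (3.63 ± 0.56, adjusted p = 0.00565), without a call in the granule layer (2.64, adjusted p = 0.0561). *Tgfb1*, a cytokine that maintains microglia and restrains inflammation, was at 126 and 99.3 CPM near and 21.4 and 31.02 CPM far (2.15 ± 0.29, adjusted p = 0.00394). Among receptors, *Csf1r*, on which microglia depend for survival, was at 283 and 324 CPM near and 48.4 and 96.6 CPM far (2.16 ± 0.23, adjusted p = 0.00216). The receptor list also held *Ptprz1*, *Sdc1*, *Csf2ra*, *Csf2rb* and *Csf3r*, so it was not limited to receptors of CSF1 and IL34. Of the list 5 of 6 were called higher. Among them *Csf2rb* was scarce outside near tissue, at 6.69 and 4.36 CPM near and 0.57 and 1.17 CPM far. The *Csf1r* ligand *Il34* was at 25.4 and 17.8 CPM near, 27.4 and 25.03 CPM far and 65.97 and 65.2 CPM in tumor spots. The difference of *Il34* was not called (-0.30 ± 0.19, adjusted p = 0.293), and its sign turned positive in the classes (0.19, 0.37 and 0.29).

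Extracellular matrix genes were called higher near for 12 of 15 tested members (median 1.52), beside 13.5% of all genes. In the classes 12 of 15, 8 of 15 and 13 of 14 were, beside 8.65%, 7.02% and 17.2%. All 12 members called over all spots were higher still in tumor spots of both sections. In section 1 tumor spots were chosen by *Col1a1* plus *Col3a1*, so high levels of other matrix genes there can follow from that choice. *Fn1*, fibronectin, was at 421 and 391 CPM near, 106 and 83.8 CPM far and 6807 and 2701 CPM in tumor spots (2.09 ± 0.25, adjusted p = 0.00277). *Tnc*, tenascin C, was at 137 and 68.4 CPM near, 9.18 and 28.2 CPM far and 539 and 3006 CPM in tumor spots (2.68 ± 0.65, adjusted p = 0.0246), without a call in the molecular and Purkinje layer (2.57, adjusted p = 0.232), in white matter (2.94, adjusted p = 0.126) or with class shares equalized (2.43, adjusted p = 0.24). Cell cycle genes had the same order, with 10 of 11 called higher near (median 1.81) and all 10 higher still in tumor spots. *Mki67*, a nuclear protein of cycling cells, was at 52.2 and 27.5 CPM near, 3.596 and 6.91 CPM far and 161 and 151 CPM in tumor spots (2.99 ± 0.52, adjusted p = 0.00838).

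Over all genes called higher near, 965 (43.0%) were higher in tumor than in near spots in both sections, 501 (22.3%) were lower in both, and in 776 (34.6%) the sections differed. Of 10 tested markers of tumor epithelium edgeR called 0 over all spots (median 0.36), 1 of 10 had an unadjusted p under 0.05 and DESeq2 called 0. Of these *Trps1*, a transcription factor of mammary epithelium, was at 73.6 and 74.8 CPM near, 50.8 and 61.5 CPM far and 269.7 and 563 CPM in tumor spots (0.41 ± 0.13, adjusted p = 0.0555). The whole epithelial list summed to 102 and 180.0 CPM near, 81.6 and 126 CPM far and 347 and 5313 CPM in tumor spots. In section 2 the rule for neural spots had already removed spots above its limit on *Epcam* plus *Krt7* plus *Krt8*. That selection could also hold down other epithelial genes in near spots. In section 1 the tumor spots themselves held little of the list (347 CPM). The count of 0 called markers therefore cannot decide whether near spots held tumor RNA. The fibroblast list summed to 579.8 and 177 CPM near, 236 and 115 CPM far and 23589 and 419 CPM in tumor spots. Section 1 tumor spots were chosen by collagens, which can raise the sum there. Of this list 4 of 10 were called higher, beside 13.5% of all genes. The part of tumor and stromal RNA in the near values was not tested. With stricter limits on *Arg1* and on the tumor genes of the rule, 2003 genes were called higher and 2158 lower.

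Perineuronal net and adult neural matrix genes were called lower near for 5 of 9 members and higher for 1 over all spots (14.4% and 13.5% of all genes). In the classes 1 of 9, 2 of 9 and 1 of 9 were lower (3.11%, 3.18% and 13.9% of all genes). *Hapln4*, a link protein of perisynaptic nets, was at 91.3 and 62.1 CPM near, 237 and 127 CPM in the middle zone and 299.6 and 198 CPM far (-1.70 ± 0.13, adjusted p = 0.00126). It fell near the tumor in each class (-1.03, -1.15 and -1.79). *Bcan* and *Acan*, the proteoglycans brevican and aggrecan, were lower over all spots (-1.31 and -1.53) and were not called in the granule layer (-0.87 and -0.56). *Tnr*, tenascin R, was the member that rose (0.73).

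Neuronal genes followed the tissue classes in part. Of 9 tested granule neuron genes 4 were higher near and 1 lower over all spots (median 0.94), beside 13.5% and 14.4% of all genes. Among the 5 that did not define a class, 0 of 5 were higher and 0 of 5 lower in the granule layer (median -0.14), and 1 of 5 had an unadjusted p under 0.05 in edgeR. *Gabrd*, a GABA receptor subunit of granule cells, was at 77.6 and 211 CPM near and 14.1 and 132 CPM far (1.42 ± 0.39, adjusted p = 0.0391) and at 0.36 in the granule layer without a call. *Gabra6*, another subunit and a class gene, was at 36.9 and 89.3 CPM near and 14.6 and 68.4 CPM far (0.78 ± 0.25, adjusted p = 0.0594). None of 10 Purkinje cell genes was called by edgeR over all spots (median 0.51), while 3 of 10 had an unadjusted p under 0.05 and DESeq2 called 0. Among the 5 that did not define a class, 3 of 5 were lower in the granule layer and 2 of 5 in the molecular and Purkinje layer. Of all genes 3.11% and 3.18% were lower in those layers. *Pvalb*, a calcium buffer of Purkinje cells and interneurons, was at 1024 and 1120.0 CPM near and 1437 and 1896 CPM far (-0.64 ± 0.27, adjusted p = 0.127), with differences of -0.98 and -0.84 in those layers, both called. *Pcp2*, a Purkinje cell signaling modulator, was at 172 and 248 CPM near and 67.3 and 244 CPM far, so that the sections differed, and was not called (0.59 ± 0.38, adjusted p = 0.303).

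Molecular layer interneuron genes were called lower near for 5 of 8 members (median -0.70), beside 14.4% of all genes. In the classes 6 of 8, 2 of 8 and 5 of 7 were, beside 3.11%, 3.18% and 13.9%. *Gad2*, a GABA-synthesizing enzyme, was at 111 and 85.2 CPM near, 222 and 201 CPM in the middle zone and 274 and 261 CPM far (-1.45 ± 0.12, adjusted p = 0.00157). It was called lower in each class (-0.96, -0.83 and -1.86). *Sst*, the peptide somatostatin of inhibitory neurons, was at 6.69 and 11.7 CPM near and 92.4 and 65.8 CPM far (-3.12 ± 0.29, adjusted p = 0.00171) and was called lower in each class (-2.45, -2.86 and -3.41). Of 10 brainstem neuron genes 8 were lower over all spots, in a comparison where brainstem spots were scarce near. *Slc6a5*, the glycine transporter of inhibitory neurons, was at 17.9 and 14.8 CPM near and 319 and 95.3 CPM far (-3.53 ± 0.42, adjusted p = 0.00288). As a description, since it defined a class, *Slc6a5* was at -2.09, -2.95 and -3.06 within the classes. In granule layer spots the brainstem list summed to 560 and 205 CPM near and 1401 and 303 CPM far.

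Synapse genes were called lower near for 12 of 15 members (median -0.88) and for 4 of 15, 8 of 14 and 14 of 14 in the classes. *Cplx1*, which clamps vesicle fusion, was at 609 and 567 CPM near, 1421 and 942 CPM in the middle zone and 2022 and 1533 CPM far (-1.58 ± 0.17, adjusted p = 0.00188). It was lower in the granule layer (-0.91) and white matter (-1.05) and not called in the molecular and Purkinje layer (-0.55). *Vamp1*, a vesicle protein of fast-firing neurons, was at 150.4 and 111 CPM near and 689 and 422 CPM far (-2.06 ± 0.14, adjusted p = 0.00126). Respiratory chain genes were called lower for 11 of 11 over all spots (median -0.68) but for 0 of 11, 0 of 11 and 3 of 11 in the classes (medians -0.22, -0.31 and -0.38), where 2 of 11 and 2 of 11 had an unadjusted p under 0.05 in edgeR in the granule and the molecular and Purkinje layer. Cholesterol synthesis genes were lower for 9 of 12 over all spots and 1 of 12, 0 of 11 and 5 of 11 in the classes. Of all genes, 14.4% were lower over all spots and 3.11%, 3.18% and 13.9% in the classes.

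Myelin genes were not uniform. Of 10 oligodendrocyte genes 3 were lower near and 1 higher over all spots (median -0.48), and of the 4 that did not define a class none was called by edgeR there or in any class, with 1 of 4 over all spots and 0 of 4, 2 of 4 and 0 of 4 in the classes at an unadjusted p under 0.05 and 0 called by DESeq2 over all spots. Over all spots 14.4% of all genes were lower and 13.5% higher. *Mobp*, a myelin protein, was at 1972 and 1196 CPM near, 2389 and 1739 CPM in the middle zone and 3176 and 2735 CPM far (-0.94 ± 0.17, adjusted p = 0.00898). *Cldn11*, the tight junction protein of the sheath, went the other way, at 818 and 523 CPM near, 292 and 517 CPM in the middle zone and 273 and 346 CPM far (1.15 ± 0.32, adjusted p = 0.04), and tumor spots had 23.9 and 23.3 CPM. *Gpr17*, a receptor of differentiating oligodendrocyte precursors, was at 48.98 and 35.6 CPM near and 9.75 and 17.6 CPM far (1.70 ± 0.34, adjusted p = 0.0127) and was called in the granule layer (1.51) and white matter (2.25).

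Vascular genes diverged. Of 9 endothelial genes 4 were higher and 3 lower near over all spots, and 4 were higher and 0 lower in the granule layer. Shares over all genes were 13.5% and 14.4% over all spots and 8.65% and 3.11% in the granule layer. *Cldn5*, the claudin of the blood-brain barrier, was at 135 and 97.3 CPM near, 51.9 and 74.6 CPM in the middle zone and 56.2 and 62.6 CPM far (0.98 ± 0.22, adjusted p = 0.0186). *Cdh5*, the endothelial cadherin, was at 48.98 and 37.6 CPM near and 19.97 and 20.3 CPM far (1.10 ± 0.16, adjusted p = 0.00435). Both were called in each class. *Flt1*, a VEGF receptor, and *Slco1a4*, an organic anion transporter of the barrier, were lower over all spots (-0.55 and -0.65) and were not called in the granule layer. Of 10 hypoxia and glycolysis genes *Hk2*, a hexokinase, was the member called (2.104 ± 0.39, adjusted p = 0.0103), beside 13.5% of all genes called higher.

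Heme and iron genes were called higher near for 6 of 9 members and lower for 1, beside 13.5% and 14.4% of all genes. *Hmox1*, which degrades heme, was at 666 and 214 CPM near, 46.4 and 77.6 CPM in the middle zone, 13.1 and 14.3 CPM far and 174 and 153 CPM in tumor spots (4.91 ± 0.57, adjusted p = 0.00273). It was highest near in both sections, and was not called in the molecular and Purkinje layer (5.62, adjusted p = 0.107) or with class shares equalized (5.24, adjusted p = 0.0908). *Slc11a1*, an ion transporter of phagosomes, rose by 3.36 and *Tfrc*, the transferrin receptor, was lower (-1.24), both in each class too. Hemoglobin transcripts were also higher over all spots, *Hba-a2* being at 44.97 and 19.5 CPM near and 5.68 and 4.69 CPM far (2.60 ± 0.42, adjusted p = 0.00641). In the granule layer *Hba-a2* was called (1.96) and *Hbb-bs*, another hemoglobin gene, was not (0.54, adjusted p = 0.393). Erythrocyte genes summed to 79.8 and 27.7 CPM near and 65.9 and 14.8 CPM far in that layer. The part of blood in the heme genes was not tested. The metallothioneins *Mt1* and *Mt2*, which bind zinc and copper, were abundant, *Mt1* at 11283 and 7429 CPM near, 5558 and 8359 CPM in the middle zone and 3129 and 4009.8 CPM far (1.41 ± 0.30, adjusted p = 0.0156) and *Mt2* rising by 1.69.

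Axon injury genes were mixed over all spots, with 2 of 12 higher and 4 lower beside 13.5% and 14.4% of all genes. In the granule layer 5 of 12 were higher and 0 lower, beside 8.65% and 3.11% of all genes. *Gap43*, a growth cone protein, was at 323 and 573 CPM near and 339.6 and 460.4 CPM far (0.09 ± 0.36, adjusted p = 0.882) and was called higher in the granule layer (1.02). *Atf3*, a transcription factor of injured neurons, was not called over all spots (1.21) and was called in the granule layer (2.01). *Sprr1a*, a regeneration-associated protein, was at 2.94 and 45.97 CPM near and 3.98 and 251 CPM far (-2.13 ± 0.34, adjusted p = 0.00624). In the granule layer its difference was positive without a call (0.63), and the sections went in opposite directions (-0.82 and 1.59). Of 10 immediate early genes 3 were higher and 1 lower, and *Junb*, a subunit of the AP-1 transcription factor, was at 119 and 116 CPM near and 20.4 and 40.3 CPM far (2.07 ± 0.33, adjusted p = 0.00592).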

How the data were processed

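Visium CytAssist libraries of 2 formalin-fixed, 5 µm sections were analysed. The authors made the deposited UMI counts with Space Ranger 2.1.1 on mm10, per the submitters' processing notes; the mouse transcriptome probe set was used, its version is not given in the sources used here. Near, middle and far spots were summed for each section (6 libraries), genes with low counts were removed (filterByExpr), and near was compared with far in edgeR 4.0.16 (quasi-likelihood, TMM, section as block, R 4.3.3) with Benjamini-Hochberg adjustment over all genes. The filter worked by zone, so a scarce gene could pass it through the zone where it was high. The 8 genes of the rule were left out of tests. Section is the block because zones of a section come from 1 mouse. DESeq2 1.42.0 was an alternative, beside other zones, filters and tissue classes. The fit was tested on simulated data with 200 changed genes. There 30 of 204 calls were false, and 74% of 2-fold and 100% of 4-fold changes were recovered. Named genes were the 8 largest called folds in each direction, up to 3 called members of each list and a fixed set. The largest folds were ranked among genes with the same direction in both sections and a minimum CPM in the higher zone of both. Further list members and promoter genes were named after their values were seen. Members and lists were chosen with earlier results of these data known, and the combined cortex class after seeing these values. Listed genes without a probe in the files, such as *Isg15* and *Clec7a*, were not analysed here. A few named genes are not reported here.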

Additional observations from a re-analysis of the deposited data

How the results depend on the processing

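The counts of called genes moved with the tissue class and with the block. Genes higher near numbered 2243 over all spots, 1228 in the granule layer, 832 in the molecular and Purkinje layer, 1269 in both layers together and 880 with no replicate block, whereas white matter had 1977 of 11506. Genes lower near numbered 2391 over all spots, 442, 377 and 593 in those classes, 989 with class shares equalized, 1592 in DESeq2, 656 with no replicate block and 1598 in white matter. Without either section 1 library remained for each zone, which left no residual degrees of freedom and no count of calls. Of 127 named genes called over all spots, the call was lost for 60 without the block, 11 in DESeq2, 49 of 121 tested in the granule layer, 47 of 113 in the molecular and Purkinje layer, 23 of 114 in white matter, 56 of 125 in both cortical layers together and 44 with class shares equalized, and the cause was not tested. The class counts include named genes that defined classes, such as *Mobp* and *Slc6a5*. With stricter neural spots the call was lost for 20 of 126, and with RLE factors or at least 4000 UMIs for none. The median of 11 of 40 lists changed sign under at least 1 setting. The Purkinje list went from 0.51 to -0.53 in both cortical layers together and -0.37 with class shares equalized, and the granule neuron list from 0.94 to -0.15 and -0.04, and both lists hold genes that defined classes. The oligodendrocyte list went from -0.48 to 0.03 in both layers together, and the Bergmann glia list from 0.60 to -0.02 in the granule layer. In the sums of single classes 11506 to 14197 genes passed the filter on low counts.

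Signs turned for a few genes, and the cause was not tested. In both cortical layers together, the granule layer and the molecular and Purkinje layer, in that order, log2 differences were -0.025, -0.098 and -0.089 for *Cbln3*, 0.30, 0.63 and 0.38 for *Sprr1a*, 0.27, 0.026 and 0.63 for *Gal*, 0.27, 0.19 and 0.37 for *Il34*, -0.48, -0.57 and -0.28 for *Pcp2* and -0.51, -0.56 and -0.55 for *Gabra6*. For *Cbln3*, *Sprr1a* and *Gal* the sections went in opposite directions in each of these settings. In both layers together, sections 1 and 2 gave 0.42 and -0.39 for *Cbln3*, -1.32 and 1.25 for *Sprr1a* and -1.69 and 1.77 for *Gal*. With class shares equalized they were 0.27 for *Il34*, -0.28 for *Pcp2* and -0.45 for *Gabra6*. In white matter they were 0.29 for *Il34*, -0.54 for *Pcp2* and -0.21 for *Gabrd*. In the molecular and Purkinje layer they were 0.12 for *Mog*, -0.21 for *Gabrd*, 0.022 for *Rgs5*, 0.32 for *Fdft1* and 0.089 for *Atp5g1*. *Cd79b* was at -0.031 in both layers together, *Ecel1* at 0.027 in the granule layer and *Gap43* at -0.074 without replicate 2. With near set to 1 to 6 and far to over 20 steps, the ratio of median UMIs was 1.91 and 1.68 in sections 1 and 2 and the granule share of near spots 34.5% and 44.3%. The ratio was 1.49 in section 1 with at least 4000 UMIs, and 1.41 in section 2 without tumor spots of fewer than 3 tumor neighbors, where the granule share was 39.4%. The granule share was 44.2% and 42.6% with stricter neural spots and 37.5% in section 1 with at least 4000 UMIs.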

Other observations

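Several genes outside the lists were called lower near in all 3 classes, and those given here were chosen after their values were seen. *Fgfr3*, a fibroblast growth factor receptor of astrocytes, was at 83.8 and 28.5 CPM near and 274 and 164 CPM far (-2.09 ± 0.20, adjusted p = 0.0018, and -1.63, -1.85 and -1.60 in the granule layer, the molecular and Purkinje layer and white matter). *Ntsr2*, a neurotensin receptor of astrocytes, was at 85.7 and 22.5 CPM near and 259.5 and 191 CPM far (-2.29 ± 0.33, adjusted p = 0.00486, and -1.55, -1.34 and -2.20 in the granule layer, the molecular and Purkinje layer and white matter). *Sparcl1*, a matricellular protein of astrocytes that promotes synapse formation, was at 651 and 404 CPM near and 2059.6 and 1711 CPM far (-1.89 ± 0.25, adjusted p = 0.00334, and -1.52, -1.61 and -1.69 in the granule layer, the molecular and Purkinje layer and white matter). *Slc7a10*, an amino acid transporter of astrocytes, was at 35.6 and 20.5 CPM near and 110.0 and 84.5 CPM far (-1.83 ± 0.18, adjusted p = 0.0016, and -0.91, -1.18 and -1.79 in the granule layer, the molecular and Purkinje layer and white matter). The astrocyte list itself was split over all spots, and *Aqp4* was higher in each class. In the oligodendrocyte list, of the 4 members that did not define a class, 0 of 4 were called in any class (medians -0.02, 0.28 and -0.10). Outside that list, *Omg* and *Aspa* were called lower in each class. *Omg*, a myelin glycoprotein, was at 82.2 and 53.4 CPM near and 203 and 157 CPM far (-1.44 ± 0.15, adjusted p = 0.0018, and -0.87, -0.87 and -1.07 in the granule layer, the molecular and Purkinje layer and white matter). *Aspa*, the enzyme that splits N-acetylaspartate, was at 37.2 and 17.8 CPM near and 66.7 and 66.4 CPM far (-1.35 ± 0.28, adjusted p = 0.0151, and -0.90, -1.46 and -1.001 in the granule layer, the molecular and Purkinje layer and white matter). In the opposite direction *Igfbp2*, a binding protein for insulin-like growth factors, was at 851 and 951 CPM near and 131 and 128 CPM far (2.78 ± 0.43, adjusted p = 0.0057, and 3.09, 2.75 and 3.64 in the granule layer, the molecular and Purkinje layer and white matter).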
